A study of Mus musculus with 2 samples.

Results

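The 6 let-7 genes described here are Mirlet7a-1, Mirlet7a-2, Mirlet7c-1, Mirlet7c-2, Mirlet7f-1 and Mirlet7f-2. They were chosen by a fixed rule that used no measured value: let-7 family genes whose main mature form is encoded at 2 loci, by their GENCODE M21 symbols. All 6 were matched, out of 2202 microRNA genes in the count tables. The study made small RNA libraries, with fragments under 30 nucleotides, from total RNA of the gastrocnemius (calf) muscle of female B6CASTF1/J mice, hybrids of a C57BL/6 and a CAST parent, aged 36 days. It has 1 group of 2 libraries, labelled biological replicates 1 and 2 of separate females, with no treatment and no control group. Both biosamples name the same donor in the labels, so the spread between the libraries may be technical, and every p-value below measures counting error or the spread between these libraries only. The comparison the design allows is that between the copies of each mature form within a library, and the question is how the reads that could be placed at a single locus divide between them.

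let-7 microRNAs are cut from hairpin precursors by Drosha and Dicer, and the strand from the 5p arm is the one usually loaded into Argonaute. They pair with target mRNAs mainly through the seed, bases 2 to 8, and are known for repressing growth and stem cell genes such as Hmga2, Ras genes and Lin28. Lin28 proteins in turn bind let-7 precursors and block their processing, and mature let-7 is abundant in differentiated tissues, muscle included. Several loci encode the same mature let-7, and a read of such a mature form alone cannot tell its locus.

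The mature 5p forms are shown first, since a read of such a form alone matches both copies. RefSeq sequences for build GRCm38.p6 matched all 6 genes, and the hairpins were identical to those of M21 in sequence and position. The capitals mark the seed, which was the same in all 3 forms.
mmu-let-7a-5p: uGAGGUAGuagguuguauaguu
mmu-let-7c-5p: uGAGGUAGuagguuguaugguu
mmu-let-7f-5p: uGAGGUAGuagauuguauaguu
Each is 22 bases long. Counted from 1 at the 5′ end, let-7a and let-7c differed by A19G, and let-7a and let-7f by G12A. The seed GAGGUAG was shared by 10 of the 11 let-7 family 5p forms matched in RefSeq, and the form with another seed was that of Mir7j. Among all 2202 M21 microRNA hairpins, each of the 3 forms was found in exactly its 2 copies.

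Beyond the mature form the copies part quickly. The first 26 bases of each hairpin from the start of the 5p form are shown because they hold the first base at which the copies differ, which is in capitals.
Mirlet7a-1: ugagguaguagguuguauaguuuUag
Mirlet7a-2: ugagguaguagguuguauaguuuAga
Mirlet7c-1: ugagguaguagguuguaugguuuAga
Mirlet7c-2: ugagguaguagguuguaugguuuUgg
Mirlet7f-1: ugagguaguagauuguauaguuGugg
Mirlet7f-2: ugagguaguagauuguauaguuUuag
The let-7a copies differed first at position 24 (U24A, copy 1 to copy 2) and the let-7c copies also at position 24 (A24U). The let-7f copies differed at position 23 (G23U), the first base after the mature form. A read that starts with the 5p form thus had to run 2 bases past it to match a single let-7a or let-7c hairpin, and 1 base past it for let-7f. On the other side, the whole mature form with 1 base before it told every copy from all other hairpins. Shorter reads that begin before the 5p form could still match 2 hairpins, since Mirlet7a-2 and Mirlet7c-1 share 20-base windows there. In each let-7 pair, the copy with U at the first base that differs had more reads in both libraries. Whether the bases past the mature form in a read were encoded at the locus was not tested. Of the 43 microRNAs with exactly 2 numbered copies in M21, 37 share a mature sequence in RefSeq, and 14 of these part at the first base after it, as let-7f does.

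The 3p forms, which come from the other arm of the hairpin, are shown with bases 2 to 8 in capitals because they decide where reads of that arm could be placed.
mmu-let-7a-1-3p: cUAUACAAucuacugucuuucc
mmu-let-7a-2-3p: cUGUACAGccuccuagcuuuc
mmu-let-7c-1-3p: cUGUACAAccuucuagcuuucc
mmu-let-7c-2-3p: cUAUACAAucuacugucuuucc
mmu-let-7f-1-3p: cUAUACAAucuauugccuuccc
mmu-let-7f-2-3p: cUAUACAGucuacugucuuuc
The 3p forms of Mirlet7a-1 and Mirlet7c-2 were identical, so that neither could be placed at a single locus although these genes give different 5p forms. The 3p forms of the other 4 genes were found in no other hairpin. Cut into windows of 20 bases, the hairpin of Mirlet7a-1 had 12 of 75 windows in another hairpin, 7 of them shared with Mirlet7c-2. Mirlet7c-2 had 11 shared windows of 76, Mirlet7a-2 had 6 of 77 and Mirlet7c-1 had 6 of 75. Mirlet7f-1 had 4 of 70 and Mirlet7f-2 had 3 of 64. Only microRNA hairpins of the reference strain were searched, so matches elsewhere in the genome and CAST alleles are not covered.

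**Figure D1:**
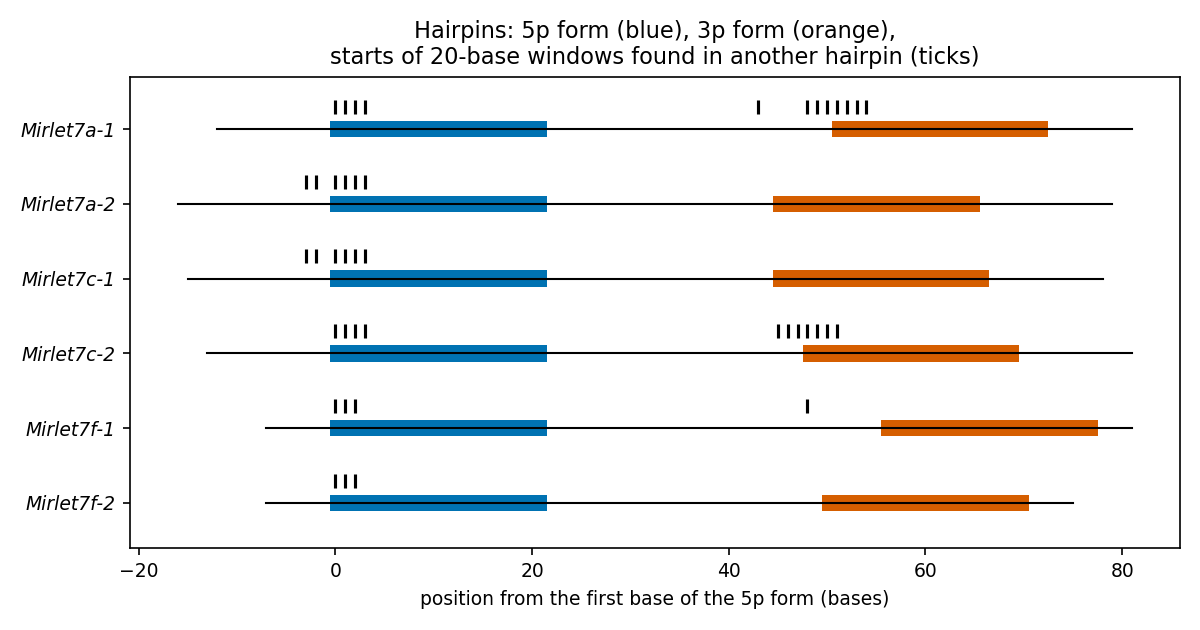
Hairpins of the 6 genes drawn to scale, with the x axis in bases from the first base of the 5p form (blue bars), 3p forms as orange bars and ticks at the start of each 20-base window that also occurs in another microRNA hairpin. Shared windows lie at the 5p form in all 6 genes, and Mirlet7a-1 and Mirlet7c-2 have a second run of 7 shared windows at the 3p form.

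The genes lie in 5 clusters, and the positions are those of mm10 with M21. Mirlet7a-1 (chromosome 13, 48538179 to 48538272, minus strand) and Mirlet7f-1 (chromosome 13, 48537829 to 48537917, minus strand) are 261 bases apart in an exon of the long non-coding RNA 6720427I07Rik, with Mirlet7d downstream. Mirlet7f-1 is the only one of the 6 with an annotated microRNA gene on the other strand, Gm24111. Mirlet7a-2 (chromosome 9, 41536716 to 41536811, plus strand) lies between Mir100 and Mir125b-1, in introns of 3110039I08Rik and Gm49317. Mirlet7c-1 (chromosome 16, 77599657 to 77599750, plus strand) lies between Mir99a and Mir125b-2 in an intron of Mir99ahg. Mirlet7c-2 (chromosome 15, 85706603 to 85706697, plus strand) precedes Mirlet7b in an exon of Lncppara. Mirlet7f-2 (chromosome X, 151912346 to 151912428, plus strand) lies upstream of Mir98 in an intron of Huwe1, a ubiquitin ligase gene.

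Replicate 1 had 1593787 reads assigned to microRNA genes of 9538917 in all, and replicate 2 had 2078101 of 14072830. Reads that matched several places, 75.4% and 77.6% of all reads in replicates 1 and 2, were counted at no gene, and they were 754 and 721 times as many as the reads at the 6 genes. How many of them are let-7 reads cannot be told from the tables. Of 9 skeletal muscle microRNA genes listed to check the tissue, 7 had at least 10 reads in both libraries. Mir206, which held most of the reads of the 9, had 32871 and 139295 reads. The neuronal genes Mir124a-1, Mir124a-2, Mir124a-3, Mir9-1 and Mir9-2 had no read and Mir9-3 had 0 and 1, for genes whose mature forms also come from several loci.

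Together the 6 genes had 9542 reads in replicate 1 and 15143 in replicate 2, which was 0.664% ± 0.0919 of gene-assigned reads (SD, n = 2). All 6 had at least 10 reads in both libraries. Mirlet7f-2 alone held 82.6% ± 0.304 of the reads of the 6 (SD, n = 2). The let-7 genes with a single-locus form held 16.0% ± 2.28 of gene-assigned reads, so that the 6 genes made up 3.97% ± 0.0153 of the reads of the let-7 list. This is the share of reads placed at a single locus and says nothing of how much let-7a, let-7c or let-7f the muscle holds.

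Mirlet7f-2 was the most abundant of the 6, with 7857 reads (4930 CPM, reads per 1000000 gene-assigned reads of the library) in replicate 1 and 12534 (6031 CPM) in replicate 2, at rank 30 and 28 of all microRNA genes. Mirlet7c-2 followed with 690 reads (433 CPM) and 1009 reads (486 CPM). Mirlet7a-1 had 310 (195 CPM) and 452 (218 CPM). The other 3 were close together. Mirlet7c-1 had 275 reads (173 CPM) and 408 (196 CPM), Mirlet7f-1 had 195 (122 CPM) and 399 (192 CPM), and Mirlet7a-2 had 215 (135 CPM) and 341 (164 CPM). Mirlet7a-2, the lowest in mean, stood at rank 149 and 137. The exact 95% counting interval of Mirlet7f-1 was 106 to 141 CPM in replicate 1 and 174 to 212 CPM in replicate 2, and that of Mirlet7f-2 was 4822 to 5040 CPM in replicate 1 and 5927 to 6138 CPM in replicate 2. In both let-7f genes the intervals of the libraries did not overlap, while in the other 4 genes they did.

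Per 100 bases of annotated hairpin, the mean levels were 6603 ± 939 CPM for Mirlet7f-2, 483 ± 39.2 for Mirlet7c-2, 219 ± 17.3 for Mirlet7a-1, 196 ± 17.9 for Mirlet7c-1, 177 ± 55.3 for Mirlet7f-1 and 156 ± 21.5 for Mirlet7a-2 (SD, n = 2 each). Mirlet7f-2 and Mirlet7c-2 did not overlap between the libraries with any gene below them. Mirlet7a-1 and Mirlet7c-1 overlapped, and so did each of the lower neighbours in this order. Mirlet7f-1 and Mirlet7c-1 changed places between the libraries, with a log2 ratio of Mirlet7c-1 over Mirlet7f-1, per base, of 0.42 in replicate 1 and -0.05 in replicate 2. Within each library Mirlet7a-1 was above Mirlet7c-1, by log2 ratios per base of 0.17 in replicate 1 and 0.15 in replicate 2. The places of Mirlet7c-1 against Mirlet7f-1, and of Mirlet7f-1 against Mirlet7a-2, differed between the libraries.

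**Figure D2:**
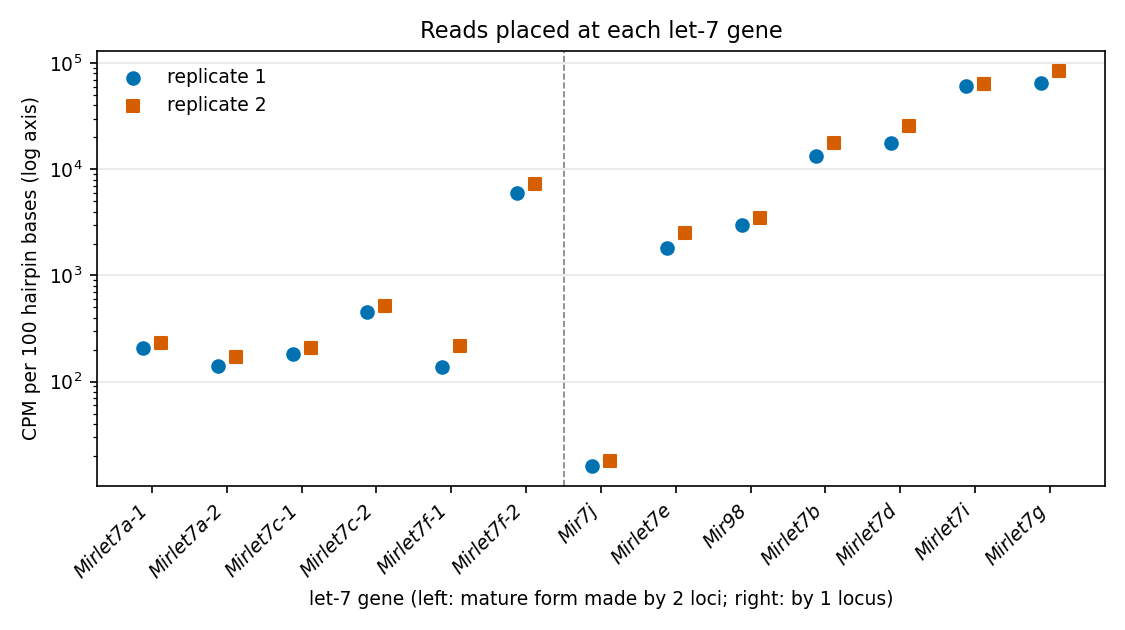
CPM per 100 hairpin bases (log axis) of the let-7 genes with reads, with replicate 1 as blue circles and replicate 2 as orange squares; the 6 genes with a form from 2 loci are left of the dashed line. Mirlet7f-2, at 6603 CPM per 100 bases on average, stands above the other 5, which lie between 137 and 511.

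The let-7f copies were the most unequal of the 3. Mirlet7f-1, on chromosome 13, had 195 and 399 reads in replicates 1 and 2, and Mirlet7f-2, on the X chromosome, had 7857 and 12534. Both libraries had far more reads at Mirlet7f-2, and the values of the copies did not overlap. Per hairpin base Mirlet7f-1 was 43.2-fold lower in replicate 1 (exact 95% counting interval 37.5 to 50.1) and 33.7-fold lower in replicate 2 (30.5 to 37.3). The log2 ratio of Mirlet7f-1 over Mirlet7f-2 was -5.25 ± 0.25 (SD, n = 2).

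The let-7c copies differed in the same order of numbering but by much less. Mirlet7c-1 had 275 and 408 reads, and Mirlet7c-2 had 690 and 1009. Both libraries had more reads at Mirlet7c-2, and the values of the copies did not overlap. Mirlet7c-1 was 2.48-fold lower per base in replicate 1 (2.16 to 2.87) and 2.45-fold lower in replicate 2 (2.18 to 2.75), a log2 ratio of -1.30 ± 0.01 (SD, n = 2). Mirlet7c-1 is the copy whose 3p form was found nowhere else, and Mirlet7c-2 the copy whose 3p form it shares with Mirlet7a-1. More reads were placed at Mirlet7c-2, which has fewer hairpin windows of its own, and any link between these was not tested.

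The let-7a copies were the closest. Mirlet7a-1 had 310 and 452 reads, and Mirlet7a-2 had 215 and 341. Within each library Mirlet7a-1 was higher, although its lower count, 310, was below the higher count of Mirlet7a-2. Per base Mirlet7a-1 was 1.47-fold higher in replicate 1 (1.23 to 1.76) and 1.35-fold higher in replicate 2 (1.17 to 1.56), a log2 ratio of 0.50 ± 0.09 (SD, n = 2). Here too the copy with the shared 3p form had more reads, and any link was not tested.

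The copies were tested with a two-sided exact binomial test in each library against the division that hairpin lengths alone would give, adjusted with Benjamini-Hochberg over 24 microRNAs with 2 numbered copies and at least 10 reads a pair in both libraries. All 3 let-7 pairs passed at 0.05 in both libraries in a single direction, with adjusted p-values in replicates 1 and 2 of 1.53e-05 and 2.92e-05 for let-7a and of 1.5e-40 and 3.94e-57 for let-7c, and values too small to be represented for let-7f. The test covers counting error only, and 87.5% of the 24 pairs passed it, so passing is the usual outcome for copies and does not set let-7 apart. Copy 1 was higher in 41.7% and copy 2 in 45.8% of the pairs.

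The size of the difference places the pairs better. Over the 21 pairs with reads at both copies in both libraries, the median absolute log2 ratio was 2.55. let-7f was exceeded by 3 pairs, let-7c by 14 and let-7a by 19. The tested pairs left out, Mir194, Mir199a and Mir3074, had a copy without reads in a library or in both, so they have no ratio. The median and these ranks therefore leave out very unequal pairs. Among other pairs averaging 100 reads or more, the widest were Mir196a with a log2 ratio of copy 1 over copy 2 of -8.45, Mir181b with -7.18 and Mir7 with 5.55. Their lower copies had few reads in replicates 1 and 2, with 14 and 8 at Mir196a-1, 7 and 7 at Mir181b-1 and 4 and 1 at Mir7-2. The ratio of Mir7 was 4.61 in replicate 1 and 6.49 in replicate 2, against -5.43 and -5.07 for let-7f. Mir7 thus exceeded let-7f in size in replicate 2 only. The narrowest were Mir125b with 0.70, Mir138 with 0.70 and Mir30c with -1.61. Copies share 5 bases past a shared mature form in Mir30c and 1 in let-7a, let-7c and Mir7. They share 0 in let-7f, in the wide pairs Mir196a and Mir181b and in the narrow pairs Mir125b and Mir138. Reads of the pairs were thus not placed under like conditions, which the ranking does not take into account. Mir125b is the neighbour of a let-7 copy in 2 clusters, and its copy 1, beside Mirlet7a-2, was the higher.

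**Figure D3:**
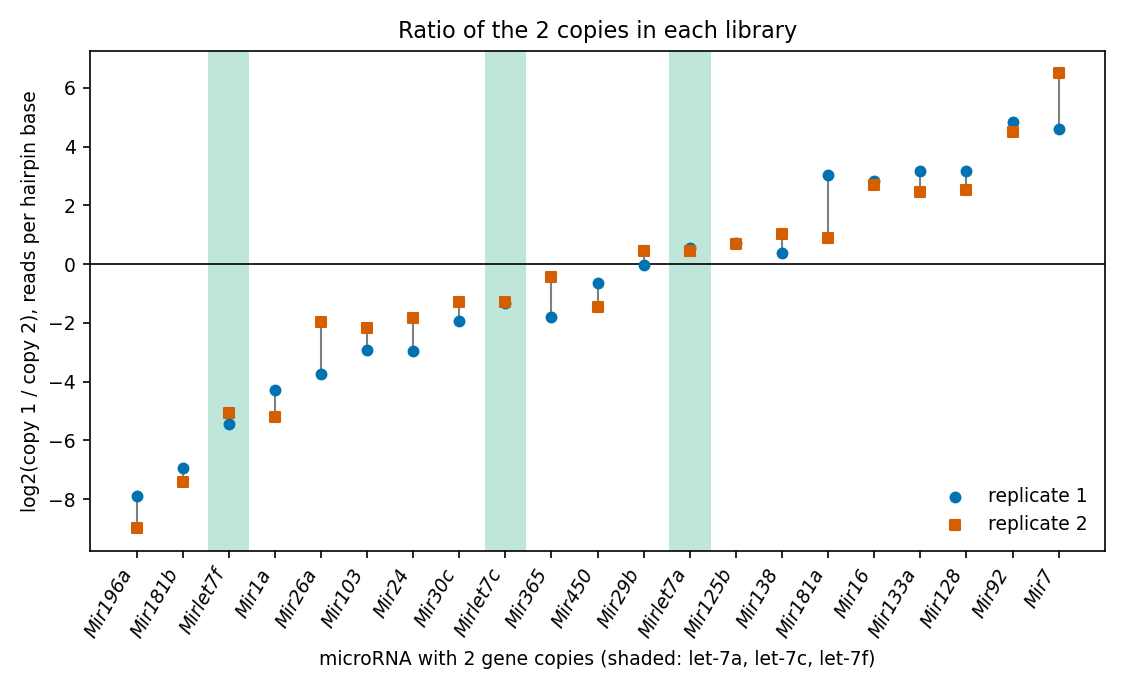
log2 ratio of copy 1 over copy 2, in reads per hairpin base, for the 21 microRNAs with reads at both copies in both libraries, ordered by mean, with replicate 1 as blue circles and replicate 2 as orange squares. The shaded let-7 pairs lie at -5.25 (let-7f), -1.30 (let-7c) and 0.50 (let-7a), with SDs between the libraries of 0.25, 0.01 and 0.09.

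The let-7 copy ratios were close between the libraries. The SD of the log2 ratio was 0.01 for let-7c, 0.09 for let-7a and 0.25 for let-7f, against a median of 0.47 over the 21 pairs. The spread was larger in 20 of these pairs than in let-7c, in 18 than in let-7a and in 15 than in let-7f. Counting error enters this spread, and it is larger for pairs in which a copy has few reads. The let-7 pairs had means of 659 reads for let-7a, 1191 for let-7c and 10493 for let-7f. Their lower copies had 215 and 341 reads for let-7a, 275 and 408 for let-7c and 195 and 399 for let-7f, in replicates 1 and 2. Several of the 21 pairs had a copy with far fewer reads, so the smaller spread of let-7 cannot be told apart from depth.

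Whether the division between copies differed between the libraries was tested with a two-sided Fisher's exact test, which needs no scaling of the libraries. Mirlet7f-1 took 2.42% of let-7f reads in replicate 1 (exact 95% interval 2.10 to 2.78) and 3.09% in replicate 2 (2.79 to 3.40), a difference of -0.663 percentage points with an adjusted p of 0.0226 over the 24 pairs. This call ended, with an adjusted p of 0.0981, in a quasi-binomial test that multiplied the counting variance by a spread factor of 1.48. The factor was the median, over the pairs, of the squared share difference divided by its counting variance. Such a median can understate the spread. Under this test 4.17% of the 24 pairs were called. Mirlet7c-1 took 28.5% of let-7c reads in replicate 1 and 28.8% in replicate 2 (adjusted p = 0.978), and the odds ratio of 0.986 had an interval of 0.819 to 1.19. Mirlet7a-1 took 59.0% of let-7a reads in replicate 1 and 57.0% in replicate 2 (adjusted p = 0.715), with an odds ratio of 1.09 and an interval of 0.864 to 1.37. Fisher's test called 20.8% of the 24 pairs. It compares these libraries and not conditions.

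Set against their cluster neighbours, 5 of the 6 genes had far fewer reads than a neighbour with a form of its own. Mirlet7a-1 stood below Mirlet7d, which had 29165 and 55243 reads, by a log2 ratio per base of -6.61 ± 0.27 (SD, n = 2). Mirlet7f-1, in the same cluster, stood at -6.96 ± 0.08 against Mirlet7d. These 2 genes were closer to each other, with a log2 ratio of Mirlet7a-1 over Mirlet7f-1 of 0.35 ± 0.35. It was 0.59 in replicate 1 and 0.10 in replicate 2. Mirlet7a-2 stood at -6.28 ± 0.16 against Mir100 (15066 and 20417 reads), Mirlet7c-1 at -7.72 ± 0.48 against Mir99a (50925 and 47078 reads) and Mirlet7c-2 at -5.01 ± 0.17 against Mirlet7b (18217 and 31596 reads). Mirlet7f-2 was the exception. It exceeded Mir98, which had 5136 and 7841 reads 785 bases away, by a log2 ratio of 1.02 ± 0.04.

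The 2 clusters that hold a Mir125b copy allow a comparison of genes that both have a duplicate. Mirlet7a-2 stood below Mir125b-1 (309 and 346 reads), at -0.59 ± 0.36, and Mirlet7c-1 above Mir125b-2 (174 and 199 reads), at 0.44 ± 0.27. These differences were below 1 on the log2 scale, unlike those from Mir100 and Mir99a in the same clusters. Reads of different microRNAs are captured with different efficiency in library preparation, so the ratios between neighbours do not compare the amounts of the microRNAs.

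**Figure D4:**
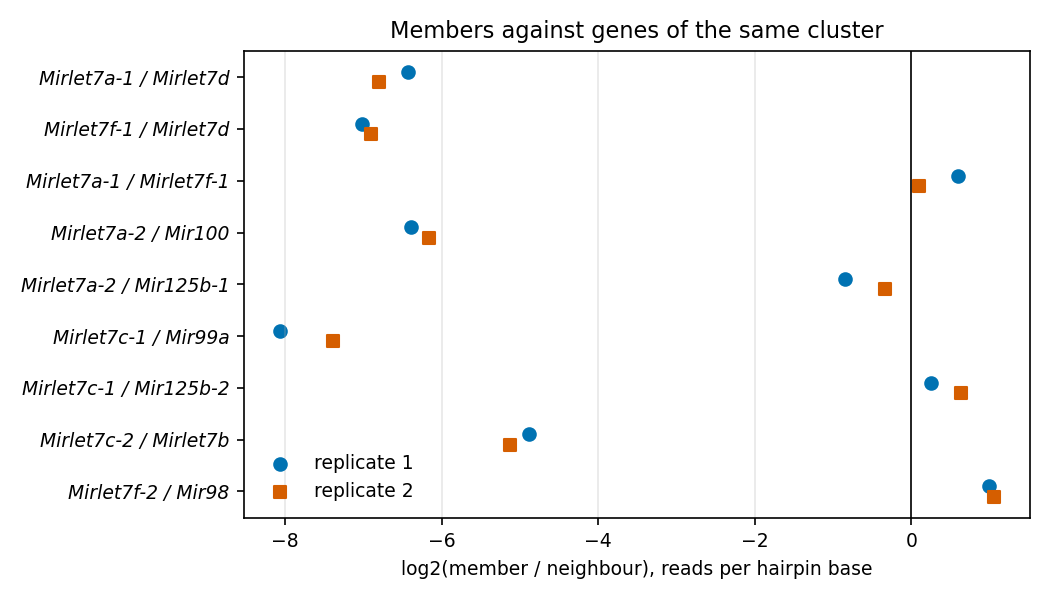
log2 ratio of each gene over a gene of its cluster, in reads per hairpin base, with replicate 1 as blue circles and replicate 2 as orange squares. Ratios to neighbours with a form of their own lie between -8.07 and -4.88, except for Mirlet7f-2 over Mir98 near 1, and ratios to neighbours that also have a copy lie within 1 of zero.

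Between the libraries all 6 genes were lower in replicate 1 than in replicate 2. With TMM-scaled library sizes, a two-sided exact binomial test with Benjamini-Hochberg adjustment over all 273 genes with at least 10 reads in both libraries called 5 of the 6 lower and none higher. Over all tested genes 63.0% were called, 33.3% lower and 29.7% higher in replicate 1. Mirlet7f-1 was 1.64-fold lower (exact 95% counting interval 1.38 to 1.96, adjusted p = 1.9e-08). Mirlet7f-2 was 1.28-fold lower (1.25 to 1.32) and Mirlet7a-2 1.27-fold (1.07 to 1.52, adjusted p = 0.0105). Mirlet7c-2 was 1.17-fold lower (1.07 to 1.30, adjusted p = 0.00223) and Mirlet7c-1 1.19-fold (1.02 to 1.39, adjusted p = 0.0412). For Mirlet7a-1 the log2 ratio was -0.23 with an adjusted p of 0.0544, which did not pass.

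The median log2 ratio of replicate 1 over replicate 2 was -0.30 for the 6 genes, -0.45 for the 7 detected let-7 genes with a single-locus form and -0.02 for all 273 genes. Of those 7 genes, 6 were lower, none was higher and Mir7j did not pass. All 6 described genes kept a negative log2 ratio with every scaling tried, and with upper-quartile factors, which moved them most, they lay between -0.62 and -0.13. When edgeR was given 1 dispersion for all genes, a coefficient of variation of 0.335 estimated from these same libraries, none of the 6 passed its exact test, none had an unadjusted p under 0.05, and 1.47% of all genes passed. Library sizes enter every one of these values, and the call of Mirlet7c-1 ended under 7 of 9 alternatives. In whole tissue, fewer cells of a type and less of the microRNA per cell cannot be told apart.

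**Figure D5:**
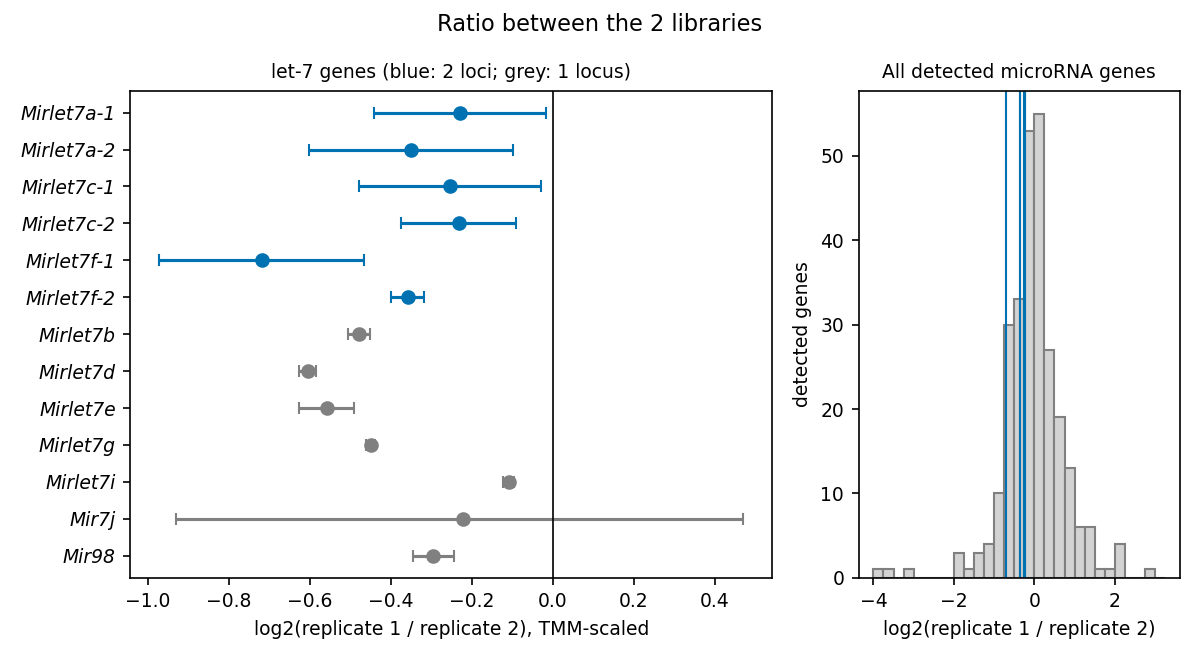
Left, log2 ratio of replicate 1 over replicate 2 with exact 95% counting intervals for the let-7 genes with reads, the 6 genes in blue; right, the distribution over all 273 detected genes with the 6 genes as blue lines. All 6 points lie below zero, between -0.72 and -0.23, inside the main body of the distribution.

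Marker microRNAs of several tissues also moved between the libraries. The 9 skeletal muscle genes summed to 2.21% of gene-assigned reads in replicate 1 and 6.98% in replicate 2, and Mir206 held most of both sums. Of the other muscle genes, Mir499 (54.0 and 735 CPM) and Mir208b (3.14 and 428 CPM) were also lower in replicate 1, Mir486 (972 and 1170 CPM), Mir1a-2 (368 and 402 CPM), Mir133a-2 (5.02 and 5.77 CPM) and Mir133b (16.3 and 16.4 CPM) differed less, and Mir1a-1 (20.1 and 11.5 CPM) and Mir133a-1 (29.5 and 20.7 CPM) were higher in replicate 1. The 2 smooth muscle genes summed to 12.03% and 6.25%. The 2 erythroid genes, Mir451a and Mir144, summed to 3.73% and 0.898%, the 3 endothelial genes to 8.86% and 11.3% and the 4 leukocyte genes to 0.142% and 0.209%. The endothelial sum was carried by Mir126a, while Mir221 (355 and 336 CPM) and Mir222 (22.6 and 17.8 CPM) were higher in replicate 1. Among the leukocyte genes Mir142 (449 and 203 CPM) and Mir223 (77.2 and 36.6 CPM) were higher in replicate 1, and Mir150 (314 and 495 CPM) and Mir155 (582 and 1357 CPM) were lower. The heart gene Mir208a had 1 and 15 reads and the liver gene Mir122 had 321 and 347. Their part in the let-7 ratios was not tested.

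The genes outside the let-7 list whose ratio between the libraries was nearest to the median of the 6, among 175 detected candidates averaging 100 reads or more, were Mir380 with a log2 ratio of -0.30, Mir541 with -0.31 and Mir379 with -0.29. All 3 differed from it by less than 0.02, and this likeness rests on 2 libraries, that is on a single ratio a gene.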

How the data were processed

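The deposited tables hold raw read counts per microRNA gene, 1 table a library, made by the authors for build mm10 and annotation M21, as a read-me text beside each table states. Which aligner and counter were used is not given in the sources at hand. The tables have no header. Their values identify 3 columns, a strand-blind count, a count of sense reads (used here) and a count of antisense reads. The 4 summary rows, among them reads that match several places, stayed out of library sizes and tests. Their shares of all reads were 75.4% and 77.6% multiply matched, 1.49% and 1.65% outside genes and 6.37% and 5.98% unmapped, in replicates 1 and 2. Rows are hairpin genes, so arms are not told apart. A count of 0 allows up to 3 counts, or 1.88 CPM in replicate 1 and 1.44 CPM in replicate 2. PCR copies cannot be recognised, and intervals cover counting error only.

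TMM factors, upper-quartile factors and the exact test at the common dispersion were computed with edgeR 4.0.16, and other size factors with DESeq2 1.42.0, in R 4.3.3. Binomial and Fisher's exact tests were computed with scipy 1.17.1 in Python 3.11.15, with Benjamini-Hochberg adjustment at 0.05. A quasi-likelihood test was not possible, since 1 group of 2 libraries leaves no residual degrees of freedom for a contrast. The exact tests were tested on simulated data drawn with counting error alone, so this covers no spread between animals. Copies are genes with the same symbol stem and the numbers 1 and 2 only. Genes named beside the 6 are the other let-7 genes, cluster neighbours, the 3 widest and 3 narrowest other copy pairs averaging 100 reads or more, the 3 genes nearest in ratio, and marker genes. Mir7j and Mir7k are the M21 symbols of let-7j and let-7k. Mir7k had no read. The genes, lists and tests were chosen with earlier results of these data known.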

Additional observations from a re-analysis of the deposited data

Results flagged for a closer look

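Entries of the tables that were themselves used in no comparison held more than the limit of 3 counts set for an empty feature. In replicate 1 there were 7195252 reads with several matches, and in replicate 2 there were 10919725. Any read of a let-7a, let-7c or let-7f 5p form without further bases belongs among them by its sequence. Another 142257 and 232773 reads had a single place that was in no microRNA gene. Gm24111, annotated on the other strand of Mirlet7f-1, had 195 and 399 reads on the strand opposite to itself, the same numbers as Mirlet7f-1 had on its own strand, and no reads on its own strand. The strand opposite to Gm24111 is that of Mirlet7f-1, so this entry can hold the same reads. As reads of Mirlet7f-1 they were used in the comparisons above. The 6 genes had 0 reads on their opposite strand in both libraries.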

How the results depend on the processing

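The copy ratios kept their direction and their calls under every alternative that gave a value. Most of these alternatives could hardly change a call. Pseudocounts do not enter the test, and leaving out a library kept a test that the call already required. Other minimum reads changed only which pairs entered the adjustment. Leaving out each replicate gave log2 ratios of 0.44 to 0.56 for let-7a, -1.31 to -1.29 for let-7c and -5.43 to -5.07 for let-7f, shares of the 6 genes of 0.599% to 0.729%, and 21 to 22 called pairs. Without regard to strand Mirlet7f-1 had 0 reads, so the let-7f ratio and share difference have no value there. The let-7f share difference of -0.663 percentage points did not pass with the quasi-binomial spread (adjusted p = 0.0981). The share of the 6 genes was 0.930% without regard to strand, 0.113% with multiply matched reads in the total and 0.788% without the most abundant gene. Of the 6 genes, 2 were called between the libraries with upper-quartile factors, 2 with no filter and 0 with edgeR at the common dispersion, and the causes were not tested. With upper-quartile factors 95 of all genes were called higher and 71 lower in replicate 1, in place of 81 and 91. Single-hairpin windows were 90.4% of all windows at 20 bases, 84.0% at 18 and 95.3% at 22. No paired analysis was possible because both libraries belong to 1 group, which leaves no groups to pair, and the copies were compared within each library throughout.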
